A study of Homo sapiens with 6 samples.

Results

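The long noncoding RNAs MALAT1 and NEAT1 and the paraspeckle protein genes NONO, SFPQ, PSPC1 and RBM14 were followed in slow-cycling and rapid-cycling breast cancer cells. These 6 genes were taken by name from the deposited tables of 58735 genes, each name matched 1 row, and all 6 passed the filter on low counts. The cells were MDA-MB-231, a line grown from triple-negative breast cancer, labelled wild type (WT), and both groups came from cultures stained with the membrane dye PKH26 and grown on for 12 days. The slow-cycling cells (SCC, labelled PKH26hi) were the brightest 1% at sorting. The rapid-cycling cells (RCC) were sorted at moderate brightness per the treatment protocol, although their sample label reads PKH26lo. Each group had 3 replicate libraries, and nothing in the labels says that they came from separate cultures, so p-values measure only the spread between these libraries, which may be technical. The comparison asks which RNAs differ with retention of a dye that is diluted by division. The RNA was from whole sorted populations, so fewer cells holding an RNA and less RNA per cell cannot be told apart.

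MALAT1 is a nuclear RNA that gathers in nuclear speckles, bodies rich in splicing factors. NEAT1 is the architectural RNA of paraspeckles, bodies that form beside speckles and hold back certain proteins and RNAs. NEAT1 is made in a short form and a long form, and only the long form builds paraspeckles. NONO, SFPQ and PSPC1 belong to the DBHS family of RNA-binding proteins, which pair with each other on the long form. NONO, SFPQ and RBM14 are needed for paraspeckles to form, whereas PSPC1 is a component that is not essential for them.

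Both RNAs end in an unusual way that sets them apart from other polymerase II transcripts, and the sequences of these ends are shown because they bear on which molecules a library can hold. In place of a poly(A) tail, MALAT1 and the long form of NEAT1 end in an A-rich tract that folds with a pair of U-rich runs into a triple helix. The end is made when a tRNA-like RNA just downstream is cut off. The last 110 bases before that cut are printed on the plus strand of GRCh38, chr11:65506007-65506116 for MALAT1 and chr11:65445431-65445540 for NEAT1, from the GENCODE transcripts. Capitals mark every run of at least 8 bases that both stretches hold, read on this strand with T for U.
MALAT1 end: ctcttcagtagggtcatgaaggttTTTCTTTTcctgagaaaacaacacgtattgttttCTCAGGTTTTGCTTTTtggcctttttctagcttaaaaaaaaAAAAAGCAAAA
NEAT1 end: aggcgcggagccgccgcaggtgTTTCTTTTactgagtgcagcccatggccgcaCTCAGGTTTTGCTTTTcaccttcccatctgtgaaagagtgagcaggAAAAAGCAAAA
Both RNAs held the same 3 runs in the same order: TTTCTTTT, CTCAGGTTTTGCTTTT and AAAAAGCAAAA. The A-rich run filled positions 100 to 110 in each, counted from 1 at the 5′ end of the stretch.

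The tRNA-like RNAs cut from the 2 transcripts lie at chr11:65506117-65506173 for MALAT1 and chr11:65445541-65445598 for NEAT1. They are set side by side to show how far the ends match, with capitals for bases that are identical in a global alignment.
MALAT1 tRNA-like: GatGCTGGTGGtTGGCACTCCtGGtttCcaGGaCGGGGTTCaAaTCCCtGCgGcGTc
NEAT1 tRNA-like: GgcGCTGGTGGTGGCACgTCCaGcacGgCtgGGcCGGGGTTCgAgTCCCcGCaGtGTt
They shared 41 of 61 alignment columns, or 67.2%. In the deposited counts the MALAT1 tRNA-like RNA was listed at 0 in every library, and the NEAT1 one had 1 read in RCC replicate 1. The former lies inside the annotated MALAT1 gene, so reads there could have been given to neither gene or to MALAT1.

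Libraries held 17655855 to 27831824 summed counts. The labelled cell type was checked against markers: VIM was at 145 to 161 FPKM, AXL at 133 to 172, EGFR at 59.2 to 63.5, CD44 at 33.3 to 36.6 and SPARC at 5.00 to 7.39. FPKM is the count scaled by gene length and library depth. The receptor genes ESR1 and PGR stayed at or under 0.0498 FPKM and CDH1 at or under 0.0698, whereas ERBB2 was at 6.88 to 10.2 and EPCAM at 1.42 to 2.29. The leukocyte and blood markers PTPRC, CD3E, CD14 and HBB were at or under 0.271 FPKM. SCC replicate 1 stood apart by GC content: genes in the highest GC decile lay 0.38 above the mean of all libraries in it (median, log2), and genes in the lowest lay 0.23 below. Mitochondrial genes took 4.45% to 4.75% of counts in SCC and 3.77% to 3.95% in RCC.

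None of the 6 genes passed an adjusted p of 0.05 (edgeR quasi-likelihood, Benjamini-Hochberg) between slow-cycling and rapid-cycling cells. DESeq2 and limma on FPKM also called 0 of them, and at an unadjusted p under 0.05 the edgeR, DESeq2 and limma counts were 0 as well. In some alternatives of the closing section MALAT1 or NEAT1 passed an unadjusted 0.05. Over all 15881 tested genes the edgeR test called 328, or 2.07%. Higher in SCC were 268 genes (1.69%) and lower 60 (0.378%), a split that became 522 and 245 with an offset for GC content. Before adjustment 11.4% of the tested genes passed 0.05 upward in SCC and 8.27% downward, the shares against which the counts of unadjusted p below stand. The median log2 fold change of the 6 genes, SCC over RCC, was -0.01, against 0.00 over all tested genes. The 2 noncoding RNAs had values below 0, and 3 of the 4 protein genes had values above 0. Intervals below are 95% intervals of this fold change.

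Levels per length, as FPKM averaged over the 6 libraries, placed NONO first at 116 (112.7 to 119), the 287th of the tested genes. SFPQ came next at 74.9 (72.5 to 79.2), and its range did not touch that of NONO. MALAT1 followed at 19.8 (17.3 to 23.9), RBM14 at 19.2 (17.5 to 22.5), PSPC1 at 17.0 (15.7 to 18.03) and NEAT1 at 13.4 (11.6 to 17.1). From MALAT1 to NEAT1 the range of each neighbour in this order overlapped that of the next. Within every library, however, NEAT1 was the lowest of the 6 genes and PSPC1 was below RBM14. MALAT1 changed place with RBM14 and PSPC1 between libraries. In RCC replicate 3 NEAT1 was close to PSPC1, at 17.1 against 17.7. The NEAT1 level depends on the length used: the deposited 22767 bases span the long form of 22743 bases, while an annotated short form has 3524. Because both forms share their 5′ part, the gene counts do not tell them apart. Whether poly(A) RNA was selected is not stated. Levels of MALAT1 and the long form of NEAT1, which lack a poly(A) tail, may therefore not compare with those of the protein genes.

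MALAT1 (ENSG00000251562, chromosome 11, 65497688 to 65506516, plus strand, GRCh38) was at 164, 180.4 and 153 CPM in SCC replicates 1 to 3. CPM is the count scaled to the library total after TMM adjustment. In RCC replicates 1 to 3 it was at 187, 156 and 212 CPM. RCC replicate 3 was the highest library and SCC replicate 3 the lowest, but RCC replicate 2 lay among the SCC libraries, so the groups overlapped. Averaged over replicates, SCC had 166 ± 13.8 CPM and RCC 185 ± 28.2 (SD, n = 3). The log2 fold change was -0.16 (standard error 0.11, interval -0.39 to 0.07, adjusted p = 0.410). On the linear scale that interval runs from 0.761 to 1.05 times the RCC level.

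NEAT1 (ENSG00000245532, chromosome 11, 65422774 to 65445540, plus strand) lies upstream of MALAT1 on the same strand. It was at 271, 317 and 273 CPM in SCC replicates 1 to 3. In RCC replicates 1 to 3 the values were 322, 263 and 391 CPM. The order of the libraries was close to that for MALAT1: RCC replicate 3 was highest, RCC replicate 1 and SCC replicate 2 followed, and the other 3 lay together at the bottom. Averaged over replicates, SCC had 287 ± 26.1 CPM and RCC 325 ± 63.7 (SD, n = 3), and the log2 fold change was -0.18 (standard error 0.12, interval -0.45 to 0.09, adjusted p = 0.420). Without RCC replicate 3 the log2 fold change was -0.04 for NEAT1 and -0.06 for MALAT1, and without RCC replicate 2 it was -0.32 and -0.28. NEAT1 was at -0.27 without SCC replicate 2. With the GC offset MALAT1 was at -0.07 and NEAT1 at -0.13, and without SCC replicate 1 they were at -0.15 and -0.14. Neither gene was called in any of these fits.

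NONO (ENSG00000147140, chromosome X, 71283192 to 71301168) encodes the DBHS protein that partners SFPQ in paraspeckles. Its CPM was 617, 634 and 622 in SCC replicates 1 to 3, and 615, 615 and 599 in RCC. All SCC libraries were above all RCC libraries by CPM, as in 27.8% of tested genes, but by FPKM the groups overlapped. The log2 fold change was 0.03 with an interval of -0.09 to 0.16 (adjusted p = 0.763), so the interval runs from 0.938 to 1.12 times the RCC level. Its highest library was only 1.06 times its lowest.

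SFPQ (ENSG00000116560, chromosome 1, 35176378 to 35193148), a splicing factor and DBHS protein, was at 597, 571 and 545 CPM in SCC replicates 1 to 3. In RCC it was at 543, 537 and 563 CPM. The RCC values lay within or just below the SCC range, and the groups overlapped. The log2 fold change was 0.06 (interval -0.08 to 0.20, adjusted p = 0.606).

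PSPC1 (ENSG00000121390, chromosome 13, 19674752 to 19783019), the third DBHS gene, was at 82.01, 76.2 and 84.9 CPM in SCC and 79.5, 86.5 and 85.6 in RCC. The groups overlapped, and the log2 fold change was -0.05 (interval -0.21 to 0.11, adjusted p = 0.730). It overlaps the antisense gene PSPC1-AS2, which had 46 reads over the 6 libraries. The use of strand was not stated, so reads in the overlap may have been given to neither gene.

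RBM14 (ENSG00000239306, chromosome 11, 66616582 to 66627347), an RNA-binding protein with a prion-like domain, was at 90.1, 69.3 and 72.8 CPM in SCC. In RCC it was at 73.0, 72.6 and 77.7 CPM. SCC replicate 1 alone was above the RCC libraries, and the other SCC replicates lay within or below them. The log2 fold change was 0.06 (interval -0.16 to 0.28, adjusted p = 0.760), and its sign turned with the GC offset (-0.11) and when SCC replicate 1 was left out (-0.07). RBM14 had the highest GC content of the 6 genes, 59.4% against 40.3% to 48.8%, in the ninth GC decile of the tested genes. It shares exons with the readthrough gene RBM14-RBM4, which had 209 reads over the 6 libraries, so part of its reads may be uncounted.

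**Figure D1:**
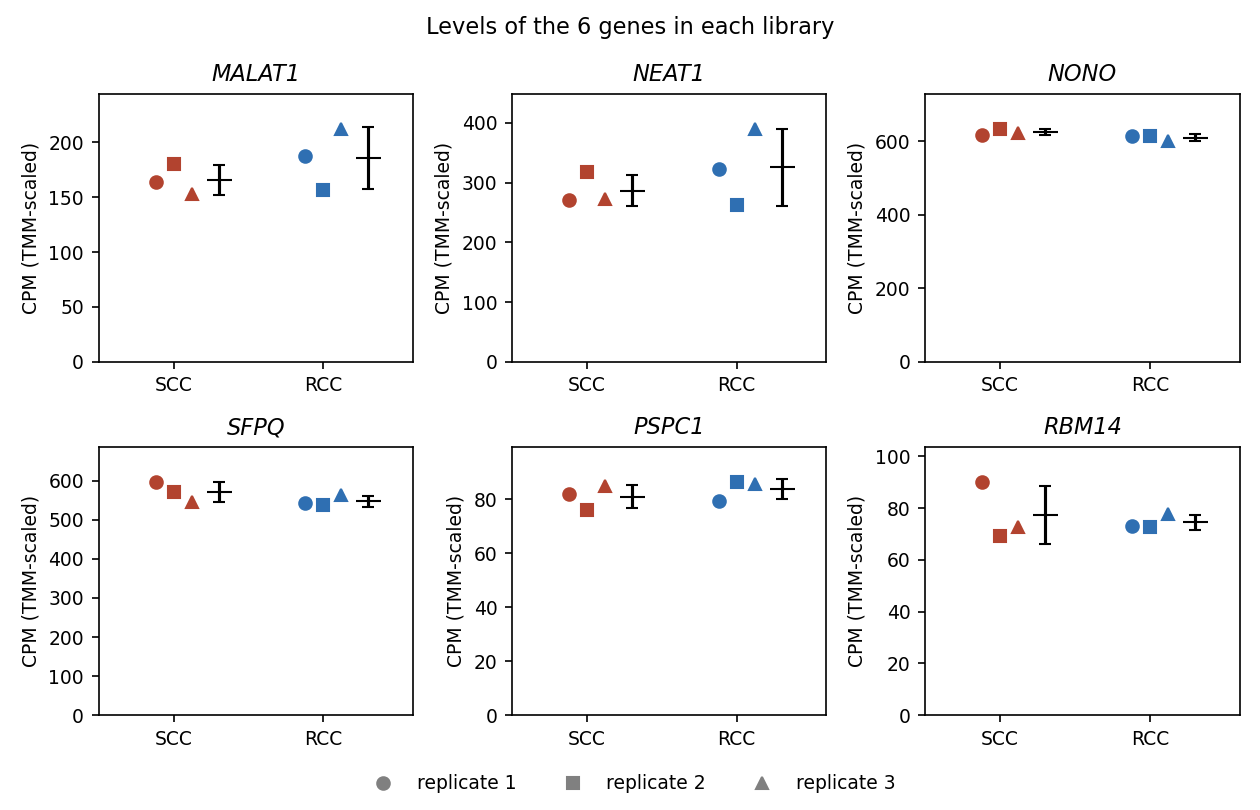
CPM (TMM-scaled, axes from 0) of each gene in each library, with marker shape for the replicate and black bars for the mean ± SD of 3 libraries. MALAT1 and NEAT1 spread most within RCC, where replicate 3 is at 212 and 391 CPM, and NONO stays between 599 and 634.

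**Figure D2:**
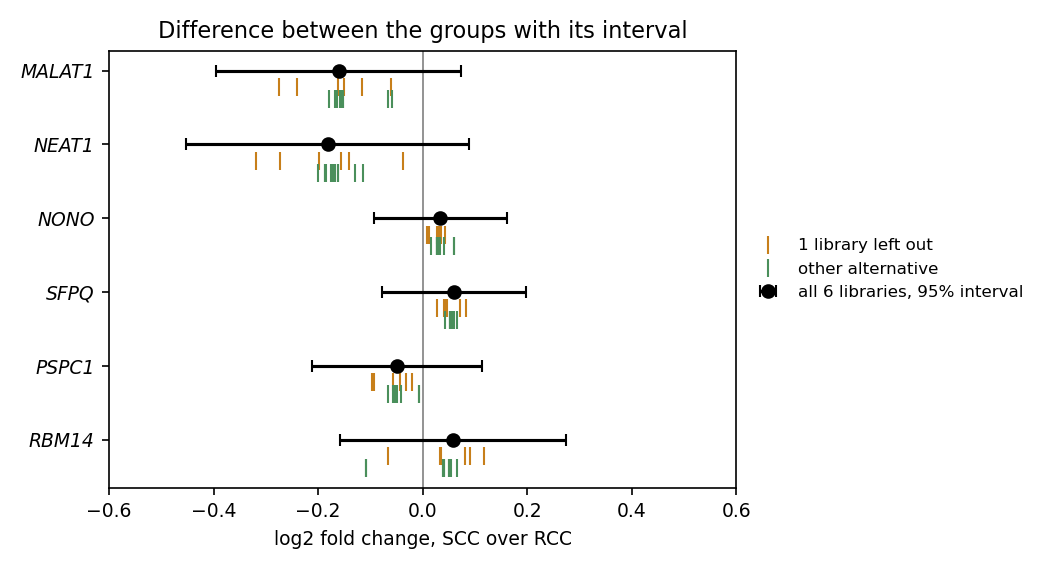
Log2 fold change of SCC over RCC (x axis) for each gene, with the 95% interval from the fit on all 6 libraries (black) and the values with 1 library left out (orange) or under another alternative (green). All 6 intervals include 0.

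MALAT1 and NEAT1 moved together from library to library. Over the 6 libraries the Pearson r of their log2 CPM was 0.98, and it was 0.97 after the group means were removed and 0.95 without RCC replicate 3. These are descriptions over 6 points that share a library and its scaling, and both genes have GC contents below the other members (40.3% and 44.1%). The ratio of NEAT1 to MALAT1 by FPKM stayed between 0.642 and 0.713, with a mean of 0.671 ± 0.026 in SCC and 0.678 ± 0.031 in RCC (SD, n = 3). Among 7892 other genes at a mean of at least 20 CPM, MALAT1 was the nearest to NEAT1 by r, and NEAT1 was the third nearest to MALAT1. Against either RNA the protein genes had r from -0.49 to 0.14 over the 6 libraries, values that moved widely with 1 library. Without RCC replicate 3, PSPC1 had r of -0.87 against MALAT1 and -0.88 against NEAT1, and NONO 0.27 and 0.44.

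The pseudogene transcript DUXAP10 (r = 0.98) and TM2D3 (r = 0.98), a membrane protein gene, were the nearest to MALAT1. For NEAT1, CCNL2 (r = 0.97), the gene of a cyclin found in nuclear speckles, and TM2D3 (r = 0.97) came after MALAT1. DUXAP10, on chromosome 14, was at 33.5, 37.99 and 31.02 CPM in SCC and 38.6, 33.8 and 46.6 in RCC. CCNL2, on chromosome 1, was at 91.6, 98.0 and 94.2 CPM in SCC and 98.1, 90.6 and 103 in RCC, a narrower range in a similar order. None of DUXAP10, TM2D3 and CCNL2 was called between the groups (adjusted p = 0.340, 0.681 and 0.777). DUXAP10 has close copies, so its counts are uncertain.

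The spread of the 2 RNAs among RCC replicates was wide for their level. The coefficient of variation over the 3 RCC libraries was 15.2% for MALAT1 and 19.6% for NEAT1. Tested genes whose mean CPM lay within a factor of 2 of each had medians of 3.25% (2406 genes) and 2.99% (1215 genes), which placed both RNAs at the 99.9th percentile. Among SCC replicates they were near the middle, at 8.31% against a median of 7.64% and 9.11% against 7.66%. NONO was at the other end, with 1.44% in SCC and 1.51% in RCC against medians of 7.41% and 3.09%. For RBM14 the wide group was SCC, at 14.4% against 8.03%, with replicate 1 as the high library.

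Counting error was small beside this spread. NEAT1 took 0.0395% of counts in RCC replicate 3 (95% Wilson interval 0.0386 to 0.0405) and 0.0263% in RCC replicate 2 (0.0256 to 0.0270). MALAT1 took 0.0215% (0.0208 to 0.0222) and 0.0156% (0.0151 to 0.0161) in the same libraries. These intervals cover counting error only. RCC replicate 3 was also the library with the highest share of counts in other lincRNA genes, 0.307%, but that share differed little from 0.305% in RCC replicate 1 and was 0.285% in RCC replicate 2. In SCC it was 0.262%, 0.286% and 0.278% in replicates 1 to 3. The part of this share in the levels of MALAT1 and NEAT1 was not tested.

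**Figure D3:**
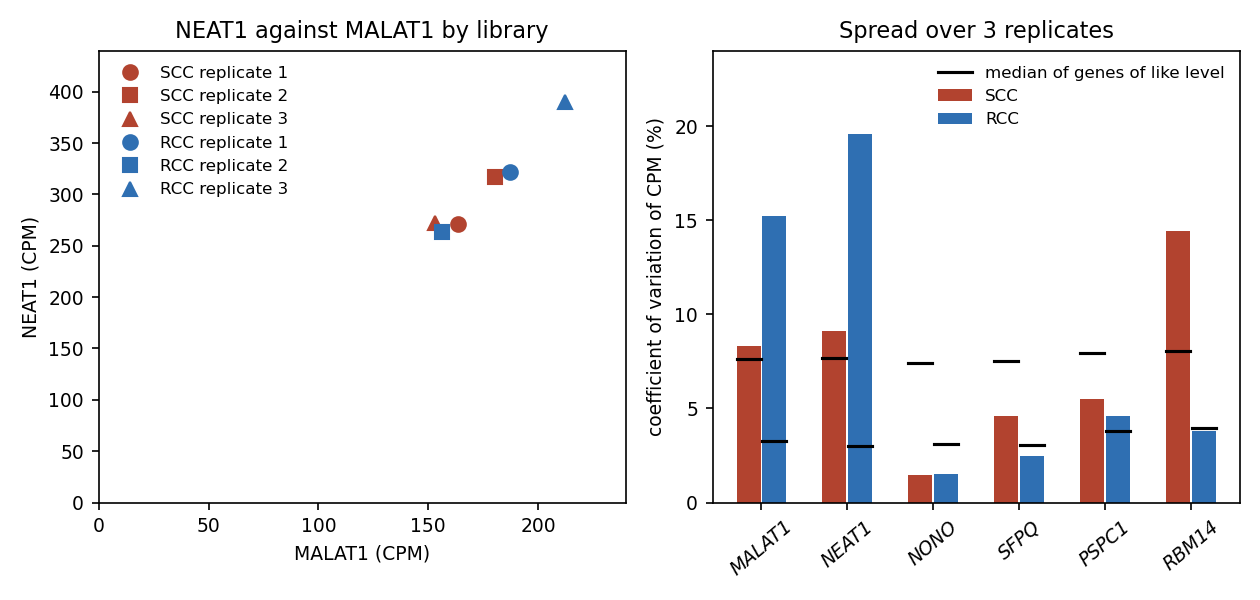
Left, NEAT1 against MALAT1 in CPM for each library, with axes from 0. Right, coefficient of variation of CPM (%) over 3 replicates for each gene in SCC and RCC, with black lines for the median of tested genes of like level. The libraries fall along 1 line on the left, and the RCC bars of MALAT1 (15.2%) and NEAT1 (19.6%) stand far above their lines on the right.

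Other protein components of paraspeckles were not called between the groups. Of 37 gene IDs for 36 names, 36 were tested and 0 were called by edgeR, DESeq2 or limma. Over all tested genes edgeR called 2.07%. With p left unadjusted, 2 of the 36 passed 0.05 upward and 3 downward by edgeR, against 11.4% and 8.27% of all tested genes. When every gene with any count was tested, 1 was called higher, AHDC1 (0.36, adjusted p = 0.0201), against 995 of 37596 genes. AHDC1 was at 50.3 CPM in SCC replicate 1 against 31.5 and 33.4 in SCC replicates 2 and 3. The median log2 fold change of the 36 was -0.05, with a range of -0.32 to 0.62. Both ends had few reads, 12 to 23 a library for an ID of MATR3 (-0.32) and 28 to 65 for ZC3H6 (0.62). MATR3 is listed under overlapping gene IDs on the same strand, so part of its reads may be uncounted. SS18L1, a subunit of a neuronal chromatin-remodelling complex, had the smallest p, at 25.3 CPM in SCC and 30.8 in RCC (log2 fold change -0.28, adjusted p = 0.124). The zinc finger gene ZNF24 came next (log2 fold change -0.26, adjusted p = 0.138) and was called without SCC replicate 1 (-0.18, adjusted p = 0.0472). With the GC offset ZNF24 was at -0.12 (adjusted p = 0.166). HNRNPA1, a splicing regulator at 357 FPKM, was the most abundant per length, with a log2 fold change of -0.10 (adjusted p = 0.413), which was -0.04 with the GC offset and without SCC replicate 1.

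Nuclear speckle protein genes likewise had 0 of 20 called by edgeR, against 2.07% of all tested genes. Before adjustment 1 passed 0.05 upward and 7 downward, against 11.4% and 8.27% of all tested genes. Their median log2 fold change was -0.01. Leaving out SCC replicate 1 gave 3 called higher (SRSF3, BCLAF1 and DDX39B) and 3 lower (LUC7L3, PNN and U2AF1). Over all 16324 genes tested that fit called 642 higher and 343 lower. Leaving out SCC replicate 2 gave 3 lower (LUC7L3, PNN and NKTR), against 261 of 16402 genes. The GC offset gave 2 higher (SRSF3 and BCLAF1) and 1 lower (LUC7L3), against 522 and 245 of 15881. With the replicate number as a block and the GC offset, SRSF3 and BCLAF1 were called higher and SRSF2, LUC7L3 and U2AF1 lower. That fit called 634 higher and 447 lower of 15881. When every gene with any count was tested, LUC7L3 and U2AF1 were called lower, against 315 of 37596. U2AF1 was at 21.9 CPM in RCC replicate 2, but at 7.48 and 3.08 in RCC replicates 1 and 3 and at 3.13 to 4.82 in SCC. It has a near-identical copy, so its counts are uncertain. DESeq2 called 1 of the 20 lower, LUC7L3, a factor of the U1 splicing particle, and limma called 0. Over all genes DESeq2 called 120 of 37594 lower and limma 36 of 12479. LUC7L3 was at 129, 168 and 153 CPM in SCC and 202, 197 and 184 in RCC. Its groups did not overlap, as in 27.8% of tested genes. The log2 fold change, -0.38 (standard error 0.094), had an adjusted p of 0.0719. LUC7L3 passed the threshold in 7 of 17 alternatives, including those without SCC replicate 1 (adjusted p = 0.00121) and without SCC replicate 2 (0.0142). PNN, a speckle protein associated with the exon junction complex, differed by -0.23 on the log2 scale (adjusted p = 0.136) and was called without SCC replicate 1 (0.0302) or SCC replicate 2 (0.0363), whereas the GC offset put it at -0.15 (0.0832). U2AF2, which recognises the end of introns and was the most abundant of the list per length at 82.7 FPKM, was at 0.07 on that scale (adjusted p = 0.605), and its sign turned with the GC offset (-0.11) and without SCC replicate 1 (-0.0013).

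Among other long noncoding RNAs held mainly or partly in the nucleus, 10 of 11 gene IDs were tested. Of these, 1 was called lower and 0 higher, against 0.378% and 1.69% of all tested genes. Before adjustment 5 passed 0.05 downward and 0 upward, against 8.27% and 11.4% of all tested genes, and the median log2 fold change was -0.12. LINC-PINT was tested under separate gene IDs, with log2 fold changes of 0.32 and -0.49, and the lower of these is among the 5. Without SCC replicate 1, 2 genes of the list were called lower, KCNQ1OT1 and OIP5-AS1, against 343 of all 16324 genes tested. When every gene with any count was tested, KCNQ1OT1 and FTX (-0.37, adjusted p = 0.0473) were called lower, against 315 of 37596. KCNQ1OT1, the antisense RNA that silences an imprinted cluster, fell in SCC: it was at 12.6, 13.1 and 11.9 CPM against 21.1, 16.2 and 19.8 in RCC. Its log2 fold change was -0.61 (standard error 0.12, adjusted p = 0.0283). The call was lost without SCC replicate 3 (0.0951), RCC replicate 1 (0.166) or RCC replicate 3 (0.145). It lies within KCNQ1 on the opposite strand, so its counts are uncertain. TUG1, a long noncoding RNA with nuclear and cytoplasmic pools, was at 165, 168 and 172 CPM in SCC and 192, 181 and 189 in RCC. The TUG1 groups did not overlap, as in 27.8% of tested genes, and the gene was not called (log2 fold change -0.16, adjusted p = 0.201).

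Small RNAs made without a poly(A) tail were mostly listed at 0. Of 9 gene IDs, 7 were listed at 0 in every library, among them RN7SK, RPPH1 and TERC, and 2 were tested. RMRP is listed under 2 overlapping gene IDs on 1 strand, so its reads may have been given to neither, and a 0 in these rows does not show that the RNA was missing from a library. RN7SL2, the RNA of the signal recognition particle, was abundant, with 11902 to 29004 reads a library, and was not called (log2 fold change 0.23, adjusted p = 0.568). When every gene with any count was tested, it was called higher (0.23, adjusted p = 0.0473), as were 995 of 37596 genes. Its near-identical copy RN7SL1 was listed at 0, so the split of reads between them is uncertain. SNORD3A, the U3 small nucleolar RNA, rose from 1.04 ± 0.21 CPM in RCC to 2.81 ± 0.92 in SCC (SD, n = 3), with a log2 fold change of 1.41 (adjusted p = 0.0466). That call was lost without SCC replicate 2 (0.0620) or 3 (0.111) and without RCC replicate 1 (0.223), 2 (0.127) or 3 (0.172). U3 has near-identical copies, so the value is uncertain.

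Of 5 transcription factors known to act on NEAT1, 1 was called higher in SCC and 0 lower. The shares over all tested genes were 1.69% and 0.378%. EPAS1, which encodes HIF-2α, rose in SCC, at 66.7, 56.9 and 63.5 CPM against 47.6, 46.2 and 48.3 in RCC (log2 fold change 0.40, standard error 0.081, adjusted p = 0.0329). The call was lost without SCC replicate 3 (0.114) or without RCC replicate 1 (0.182), 2 (0.171) or 3 (0.148). HSF1, HIF1A and ATF2 were not called, with adjusted p from 0.267 to 0.929. When every gene with any count was tested, HSF1 was called higher (0.32, adjusted p = 0.00675), as were 995 of 37596 genes. HSF1 was at 197 CPM in SCC replicate 1 against 122 and 133 in SCC replicates 2 and 3.

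Genes beside NEAT1 and MALAT1 on chromosome 11 were not called either. Within 100 kb of the pair lay 26 other gene IDs, of which 13 were tested and 0 called by edgeR, DESeq2 or limma. The edgeR share over all tested genes was 2.07%. Before adjustment 5 passed 0.05 upward and 0 downward, against 11.4% and 8.27% of all tested genes, and the median log2 fold change was 0.21, on the other side of 0 from the 2 RNAs. Without SCC replicate 2, 2 were called higher, MAP3K11 (adjusted p = 0.0481) and FRMD8 (0.0472), against 585 of all 16402 genes tested. When every gene with any count was tested, LTBP3 (adjusted p = 4.2e-05), MAP3K11 (7.5e-04) and FRMD8 (0.0449) were called higher. That fit called 995 of 37596 genes higher. LTBP3 was at 177 CPM in SCC replicate 1 against 109 and 112 in SCC replicates 2 and 3. With the replicate number as a block and the GC offset, MAP3K11 was called higher (0.0468) and SSSCA1 lower (-0.33, 0.0243). That fit called 634 genes higher and 447 lower of 15881. FRMD8, a membrane scaffold gene, was at 0.29 on the log2 scale (adjusted p = 0.140), and at 0.09 with the GC offset (0.475). MAP3K11, a kinase gene, was at 0.39 (adjusted p = 0.152), with 125 CPM in the first SCC replicate against 85.0 and 85.9 CPM in replicates 2 and 3. It was at 0.18 with that first replicate left out (adjusted p = 0.0507) and at 0.22 with the GC offset (0.0883). EHBP1L1, the most abundant neighbour per length, was at 0.21 (adjusted p = 0.282), at 0.08 without SCC replicate 1, and its sign turned with the GC offset (-0.04). FRMD8, MAP3K11 and EHBP1L1 have GC contents of 59.1% to 64.0%, above those of both RNAs, and each of their values was smaller in size with the GC offset. The genes annotated inside MALAT1 and NEAT1, among them MIR612, were listed at 0 in every library.

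**Figure D4:**
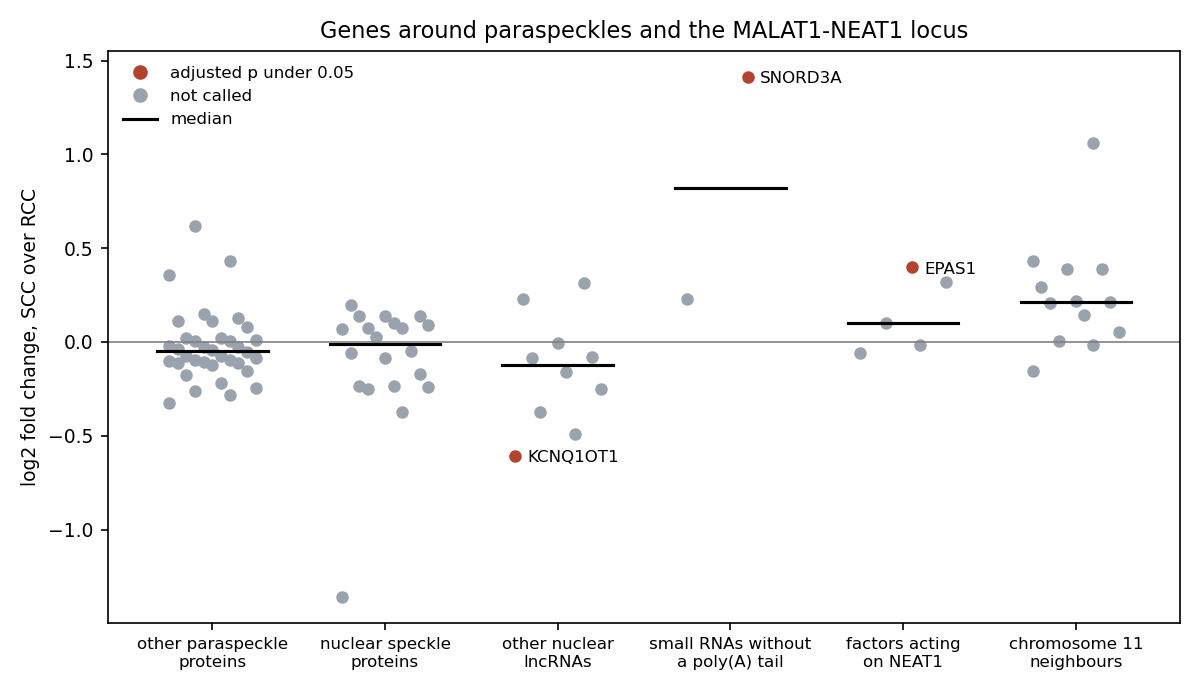
Log2 fold change of SCC over RCC (y axis) for each tested gene of 6 lists (x axis), with red points for genes at an adjusted p under 0.05, grey points for the others and black lines for the list medians. The red points are KCNQ1OT1 (-0.61), SNORD3A (1.41) and EPAS1 (0.40).

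Start-site windows from RefSeq (GRCh38.p14, 250 bases before to 50 after the start) were at hand for MALAT1 with 2 starts, RBM14, PSPC1 and NONO. The AP-1 motif TGANTCA and the related CRE motif TGACGTCA, searched on both strands, had 0 matches in these 5 windows. Over all 35116 windows, 7.71% held the first and 1.85% the second. No match says only that these letters are not in these windows.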

How the data were processed

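Per the labels' protocols, the RNA came from a TRIzol extraction and the libraries from an NEBNext Ultra kit. The submitters' processing notes name HISAT2 2.0.5 and featureCounts 1.5.0-p3. The build, read filters, strand setting and any selection of poly(A) RNA are not given in the sources used here. All 58735 deposited rows match the gene positions of GENCODE release 29 on GRCh38. The authors deposited whole-number counts and FPKM per gene, with gene length. 27 names turned into dates were restored by gene ID.

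The test on counts used edgeR 4.0.16 under R 4.3.3: filterByExpr at a minimum count of 10, TMM scaling, glmQLFit on group, Benjamini-Hochberg over all tested genes. Standard errors are the fold change over the square root of F. FPKM was tested with limma 3.58.1 on log2(FPKM + 1). Scripts were tested on simulated data. GC content is that of each gene's longest transcript. Alternatives are given in the closing section. Replicate numbers were not taken to pair libraries. The 6 genes and the lists were chosen with earlier results of these data known.

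All 6 genes were named whatever their result. From each list, called genes were named, or else the 2 with the smallest p and the 1 highest in FPKM, and for MALAT1 and NEAT1 the 3 genes nearest by Pearson r of log2 CPM. TUG1, RN7SL2, genes named only for a call under an alternative, and the factors that were not called were chosen after their values were seen. Some genes of the marker and factor lists are not reported here.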

Additional observations from a re-analysis of the deposited data

How the results depend on the processing

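None of the 6 genes was called in any of 17 alternatives: DESeq2 1.42.0, RLE and upper-quartile scaling, 2 other filters, 3 fits of limma on FPKM, the GC offset (lowess span 0.3), the replicate number as a block, both together, and each library left out. MALAT1 ranged from -0.28 to -0.06, NEAT1 from -0.32 to -0.04, NONO from 0.01 to 0.06, SFPQ from 0.03 to 0.08 and PSPC1 from -0.10 to -0.01 (log2), all with 1 sign. RBM14 reversed with the GC offset (-0.11), the block with the GC offset (-0.11) and over the fits without 1 library ranged from -0.065 (without SCC replicate 1) to 0.12. U2AF2 reversed with the GC offset (-0.11), with the block and GC offset (-0.12) and without SCC replicate 1 (-0.0013), and EHBP1L1 with the GC offset (-0.0406) and with the block and GC offset (-0.0403).

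Over all genes, against 268 higher and 60 lower, testing each gene that had any count gave 995 and 315, and DESeq2 120 lower. The limma fits gave 130 and 36 on log2(FPKM + 1), 117 and 34 on log2(FPKM + 0.1), and 48 and 1 without a filter. The GC offset gave 522 and 245. Without 1 library, higher calls ranged from 99 to 642 and lower from 8 to 343. The cause was not tested. Same-numbered replicates did not deviate together (correlations -0.02, 0.04 and -0.10), so the numbers were not taken as pairs. The replicate block gave 106 lower genes, and with the GC offset 634 higher and 447 lower. Of the list genes that edgeR had not called, the block called LUC7L3 (adjusted p = 0.0412). The block with the GC offset called SRSF3 (0.00357), BCLAF1 (7.1e-04) and MAP3K11 (0.0468) higher. It called LUC7L3 (0.00393), SRSF2 (0.0299), U2AF1 (0.0144) and SSSCA1 (0.0243) lower. The EPAS1 call was lost in the limma fits (0.0791, 0.0799 and 0.230), as was that of SNORD3A (0.0904, 0.0840 and 0.303), and that of KCNQ1OT1 on FPKM without a filter (0.653). With 3 libraries a group, the intervals of MALAT1 and NEAT1 leave room for a level in SCC down to 0.761 and 0.730 times that in RCC.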
